A study of Homo sapiens with 4 samples.

Results

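Pre-mRNA splicing genes were examined in EA.hy926 cells, a human hybrid clone of an umbilical vein endothelial cell and a lung carcinoma cell. The set holds 59 genes of the 62443 gene rows used, listed by name with earlier results of these data known, in 3 classes: 28 snRNP and core proteins, 12 SR proteins and 19 hnRNPs. All 59 had a value in the deposited table, and 56 reached at least 1 FPKM in at least 2 libraries and were tested. FPKM counts fragments per kilobase of transcript and per 1000000 mapped fragments. Of the 4 libraries, 2 came from cells given miR-187 and 2 from cells given the control miRNA miR-NC. Both groups are this line, and neither dose nor harvest time is given for these libraries in the labels. The comparison asks how the transcriptome of these cells differs once miR-187 is raised. Nothing in the labels says that replicates were separate cultures, so p-values here reflect only how these 4 libraries vary, perhaps for technical reasons.

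Introns are removed by the spliceosome, which assembles on each pre-mRNA from small nuclear ribonucleoproteins (snRNPs). A ring of Sm proteins sits on the U1, U2, U4 and U5 RNAs. U1 recognizes the start of the intron, U2 with its SF3A and SF3B proteins recognizes the branch point, and the U4/U6.U5 tri-snRNP then joins and is rearranged into the active enzyme. SR proteins bind exonic sequences and usually favour inclusion of the exon, whereas hnRNPs coat the pre-mRNA and often oppose it. A miRNA acts mostly through its seed, bases 2 to 8, which pairs with sites in the 3′ ends of mRNAs. The mature strand of miR-187, encoded on chromosome 18 from 35904835 to 35904856 on the minus strand (RefSeq, GRCh38.p14), is shown because it was the agent added, with the seed in capitals.
hsa-miR-187-3p: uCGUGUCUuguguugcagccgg
The guide strand in the study's oligo table is identical over all 22 bases. The seed match was searched on the sense strand of 1 annotated 3′ UTR per gene (GENCODE 29). The motif AGACACG pairs with the whole seed. The motif GACACGA pairs with bases 2 to 7 and has an A opposite base 1. Both motifs contain the shorter GACACG and may overlap each other. None of the 56 tested members held even the 6-letter motif. Among the 7051 tested genes with an annotated 3′ UTR, 222 (3.15%) held a 7-letter match and a further 258 (3.66%) only the 6-letter one. No match says only that these letters are absent from those annotated UTRs.

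As deposited, the median splicing gene had a lower FPKM with miR-187, and SRSF9, HNRNPU, HNRNPAB and SRSF6 had the most negative fold changes among those that passed the test, while HNRNPM and PRPF31 were higher. Of 56 tested members, 12 were lower (21.4%) and 2 were higher (3.57%) at an adjusted p under 0.05 in limma, beside 27.3% of all 8196 tested genes lower and 1.49% higher. The median log2 fold change of the members was -0.26 against -0.39 for all tested genes, and 36 of 56 members lay above the latter value. In 28 members (50%) both miR-187 libraries lay below both miR-NC libraries, beside 65.4% of all tested genes, and in 5 members (8.93%) both lay above, beside 5.93%. The lowered share of the members was thus no larger than the background. Among the 12 lower genes SRSF9 and SF3A2 were under 1 FPKM in both miR-187 libraries and entered the test only through the miR-NC libraries, so a gene could enter that way only if it was lower with miR-187. Of all tested genes 634 entered only through the miR-NC and 25 only through the miR-187 libraries. Without both kinds, 10 of 54 members (18.5%) were lower, beside 25.5% of 7537 genes. With a filter on the mean of all 4 libraries, chosen after seeing the data, 11 of 55 were lower and 2 higher. Fold changes are on the log2(FPKM + 1) scale, which makes changes of weakly expressed genes look smaller, and the error after ± is 1 SE of the limma fit. FPKM of single libraries is given in 1 order throughout, miR-NC replicates 1 and 2 against miR-187 replicates 1 and 2.

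Much of this general lowering depends on how the libraries are scaled. Median-of-ratios factors, which set the typical gene to equal levels, shifted the median of all tested genes by 0.38 to -0.01. After that scaling, 1 member (1.79%) was lower and 7 (12.5%) were higher, beside 3.7% and 4.67% of all tested genes, and the members' median became 0.16. Here and for the classes below, these shares were not matched for mean FPKM. The scaled median log2 fold change of all tested genes was -0.07 under 10 FPKM and 0.26 at 50 FPKM and over. Of the genes tested, 2236 were lower and 122 higher as deposited, and 303 and 383 after scaling. Only SRSF9 was lower and only HNRNPM and PRPF31 were higher under both scalings. SRSF9 is the gene that entered only through the miR-NC libraries, so its lower call was favoured by the filter. The number of members lower also followed single libraries, as did the number over all tested genes, whose range is given at the end. Without either miR-NC library 54 members were tested, and without either miR-187 library 56. Leaving out a miR-NC library gave 17 (replicate 1) or 1 (replicate 2), and leaving out a miR-187 library gave 6 (replicate 1) or 4 (replicate 2). In miR-NC replicate 2 the FPKM was above that of replicate 1 for 48 of the 59 members (81.4%), beside 80.4% of all tested genes. The number higher was 2 with all libraries and ranged from 1, when miR-187 replicate 1 was left out, to 3, when replicate 2 was.

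**Figure D1:**
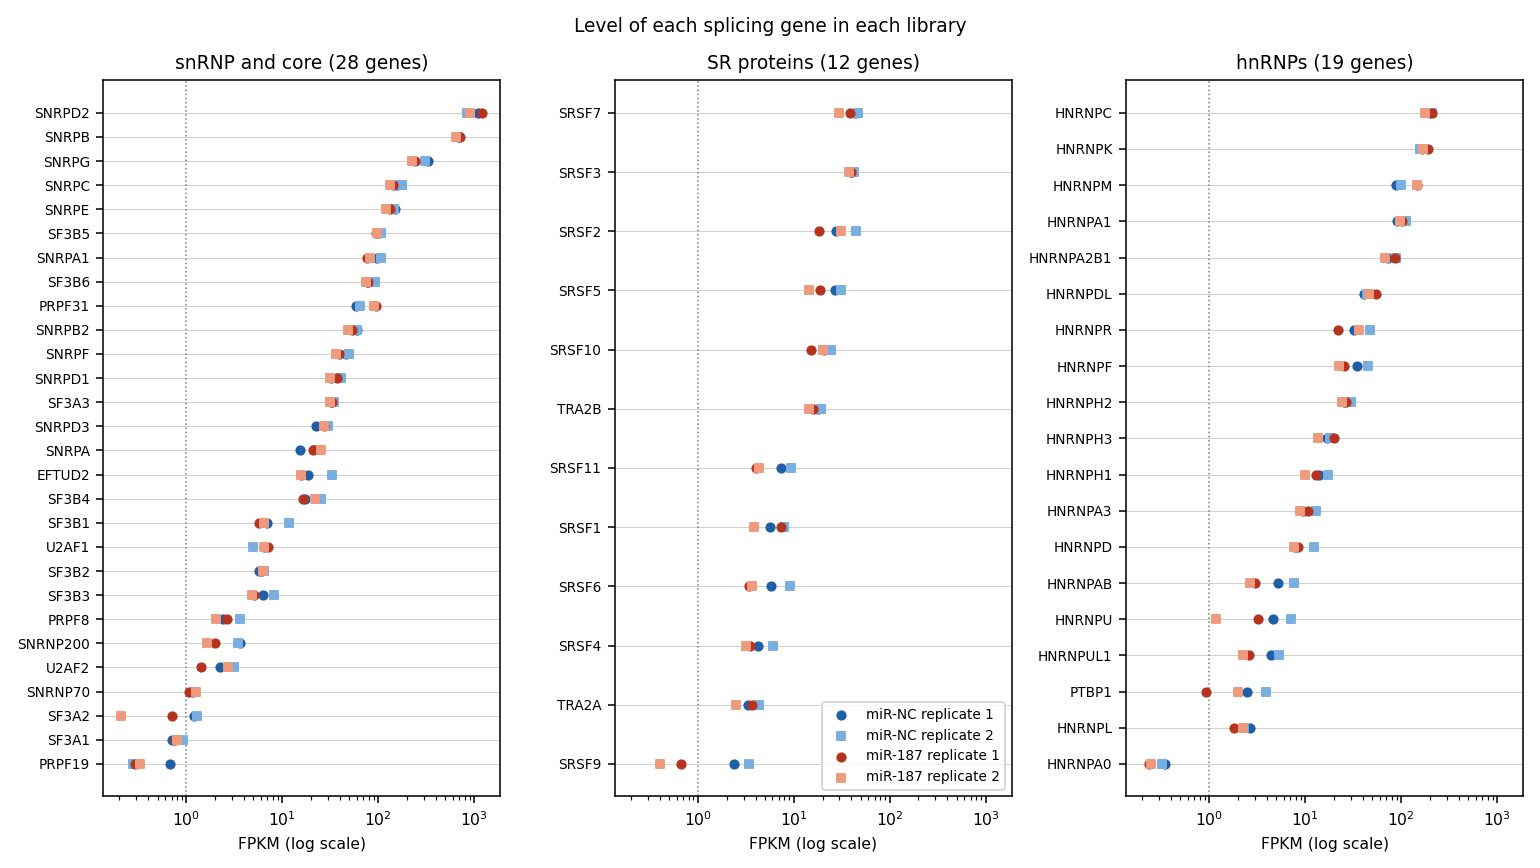
FPKM of each of the 59 splicing genes (log axis) in the 2 miR-NC libraries (blue) and the 2 miR-187 libraries (red), by class and ordered by mean level, with a dotted line at 1 FPKM. SNRPD2 and SNRPB stand at the top, SF3A1, PRPF19 and HNRNPA0 lie below 1 FPKM in every library, and the red points of HNRNPM and PRPF31 lie to the right of the blue ones.

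The summed FPKM of the 59 genes was 4050 and 4034 with miR-NC against 4161 and 3657 with miR-187, between 0.489% and 0.550% of all FPKM in a library. These sums overlapped between the groups. They were dominated by a few small Sm proteins, so they say little of the typical member. Over all genes, FPKM summed to between 736702 and 763221 per library. Genes at 1 FPKM or more numbered 8098 and 8868 in the control libraries, against 7290 and 7189 under miR-187. Depth is unknown, because no read totals were used and whole reads could not be recovered from the low values. Of 12 endothelial markers listed 11 had a value, and PECAM1 was not found under its symbol. Of the 7 tested, 4 were lower with miR-187 (ESAM, NOS3, CDH5 and EGFL7), beside 27.3% of all tested genes, and none was higher. TIE1 (adjusted p 0.0501 in limma), ERG (adjusted p 0.14) and TEK (adjusted p 0.23) were not called. EGFL7 was no longer called after median-of-ratios scaling (-0.15, adjusted p 0.46). The summed FPKM of the 11 was 267 and 349 with miR-NC against 169 and 176 with miR-187. CLDN5 and EMCN were listed at 0 in every library, and VWF and KDR were below 1 FPKM in all of them. Of 6 epithelial markers, KRT8, KRT18 and KRT7 were abundant and CDH1 was at 0, with sums of 4940, 4900, 4765 and 5192 FPKM in the same order of libraries. Of 5 blood markers PTPRC, CD3E and HBB were at 0 and CD14 was at 0.11 FPKM in miR-NC replicate 1 and at 0 in the others. CD68, a lysosomal protein that other cells also make, was at 66.2 and 65.5 against 72.1 and 44.6 FPKM, and the fibroblast list summed to at most 0.5003 FPKM. Whether the endothelial markers bear on the splicing genes was not tested. Fewer cells of a kind and less RNA per cell cannot be told apart in bulk RNA.

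Among the snRNP and core proteins, 4 of 26 tested genes were lower (15.4%, beside 27.3% of all tested genes) and PRPF31 was higher. The class median was -0.18. After median-of-ratios scaling 0 were lower and 3 were higher, with a median of 0.26. At an unadjusted p under 0.05 in limma, 0 were then below 0 and 11 above, beside 13.6% of all tested genes below and 15.02% above. PRPF31, which clamps the U4 snRNP and is needed to form the tri-snRNP, was at 59.05 and 64.2 against 94.8 and 90.8 FPKM. Both miR-187 libraries lay above both controls, 1.51-fold by the ratio of means. Its log2 fold change was 0.58 ± 0.13 with an adjusted p of 0.0063, and 1.07 (adjusted p = 0.0075) after median-of-ratios scaling. Leaving out miR-187 replicate 1 moved its adjusted p to 0.051, just over the threshold. PRPF31 (ENSG00000105618) lies on chromosome 19 from 54115410 to 54131719 on the plus strand (GENCODE 29, GRCh38). TFPT, a chromatin remodelling subunit encoded on the opposite strand, shares 266 exonic bases with it. TFPT was at 11.01 and 15.5 against 8.83 and 10.2 FPKM and did not pass the test (log2 fold change -0.43, adjusted p 0.14).

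Of the 59 genes, none of the other U5 snRNP, tri-snRNP and activation proteins was higher, though PLRG1, outside the set, was. SNRNP200, the helicase that unwinds U4 from U6, was at 3.59 and 3.46 against 1.98 and 1.63 FPKM, a log2 fold change of -0.69 ± 0.24 with an adjusted p of 0.045. The groups did not overlap, yet this call was lost without any 1 of the 4 libraries (adjusted p from 0.065 to 0.34). EFTUD2, the U5 GTPase, was at 18.3 and 33.0 against 15.8 and 15.5 FPKM, with miR-NC replicate 2 far above the other libraries, and it missed the threshold (log2 fold change -0.63 ± 0.23, adjusted p 0.056). PRPF8, the large scaffold at the catalytic centre, was at 2.40 and 3.62 against 2.63 and 2.02 FPKM, and the groups overlapped (log2 fold change -0.26 ± 0.26, adjusted p 0.44). PRPF19, a ubiquitin ligase of the activation complex, lay below the expression filter at 0.680 and 0.277 against 0.288 and 0.327 FPKM. Ratios within a library carry no scaling factor. The pairs here and below were chosen after their values were seen, so a separation of the groups in them is no independent support. PRPF31 to SNRNP200 was 16.4 and 18.6 with miR-NC against 47.9 and 55.7 with miR-187. PRPF31 to EFTUD2 was 3.22 and 1.95 with miR-NC against 6.01 and 5.86 with miR-187.

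The 7 Sm ring proteins, each present as a single copy in the ring, had very unequal mRNA levels, from a mean of 26.7 FPKM for SNRPD3 to 1014 FPKM for SNRPD2. Only SNRPG passed the test, and the ring proteins summed to 2355 and 2094 FPKM with miR-NC against 2404 and 2001 with miR-187. SNRPD2 was at 1088 and 834 against 1218 and 914 FPKM and SNRPB at 687 and 684 against 709 and 645 FPKM. In both genes the groups overlapped, and the log2 fold changes were 0.15 ± 0.14 with an adjusted p of 0.42 for SNRPD2 and -0.02 ± 0.09 with an adjusted p of 0.88 for SNRPB. SNRPG was at 330.3 and 308 against 242 and 226 FPKM, with both miR-187 libraries below both controls. The log2 fold change was -0.45 ± 0.10 with an adjusted p of 0.0085, no longer called after leaving out miR-187 replicate 2 (adjusted p 0.071). SNRPE (-0.22) and SNRPF (-0.34) also had both miR-187 libraries lowest, without passing the test, and SNRPD1 (-0.07) and SNRPD3 (0.06) overlapped. After median-of-ratios scaling all 7 were above 0, with SNRPG at 0.04 (adjusted p = 0.89) and SNRPD3 called higher at 0.53 (adjusted p = 0.041).

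SNRPG has processed copies that can share its fragments. Of 20 annotated SNRPG pseudogenes, 14 were listed at 0 in every library, and SNRPGP10 held most of the remaining signal. SNRPGP10 was at 28.3 and 84.0 against 108 and 72.8 FPKM, with the lowest value in miR-NC replicate 1 and an overlap between groups (log2 fold change 0.84 ± 0.35, adjusted p 0.08). All copies together took 10.4% and 24.3% of the joint FPKM of SNRPG and its copies with miR-NC, against 34.9% and 27.9% with miR-187. Gene and copies together were at 369 and 407 against 371 and 313 FPKM, where the groups overlapped. The log2 ratio of means was -0.18 for the joint value and -0.45 for SNRPG alone. The annotated SNRPG transcript has 625 nt and SNRPGP10 has 225. Because FPKM is divided by length, moving a fragment between gene and copy also changes the joint value. The first 225 coding bases of SNRPG (chromosome 2, 70281362 to 70293771, minus strand) and the whole of SNRPGP10 (chromosome 1, 205351247 to 205351471, plus strand; GENCODE 29, GRCh38) are shown because they are identical at 221 positions. The 4 differences are in capitals.
SNRPG coding sequence: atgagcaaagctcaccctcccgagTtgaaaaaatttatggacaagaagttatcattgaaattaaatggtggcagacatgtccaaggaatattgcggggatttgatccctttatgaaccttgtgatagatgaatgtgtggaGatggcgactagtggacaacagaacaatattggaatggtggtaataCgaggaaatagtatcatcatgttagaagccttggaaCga
SNRPGP10: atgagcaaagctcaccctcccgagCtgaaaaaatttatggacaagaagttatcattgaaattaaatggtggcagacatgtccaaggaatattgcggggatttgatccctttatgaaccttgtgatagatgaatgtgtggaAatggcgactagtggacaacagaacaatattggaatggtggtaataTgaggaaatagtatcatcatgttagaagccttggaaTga
Counted from the A of the start codon, the substitutions from SNRPG to the copy are T25C, G141A, C187T and C223T, of which the last pair each turn a CGA codon into the stop codon TGA. Fragments from identical stretches can be assigned to either gene, so both levels are uncertain.

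**Figure D2:**
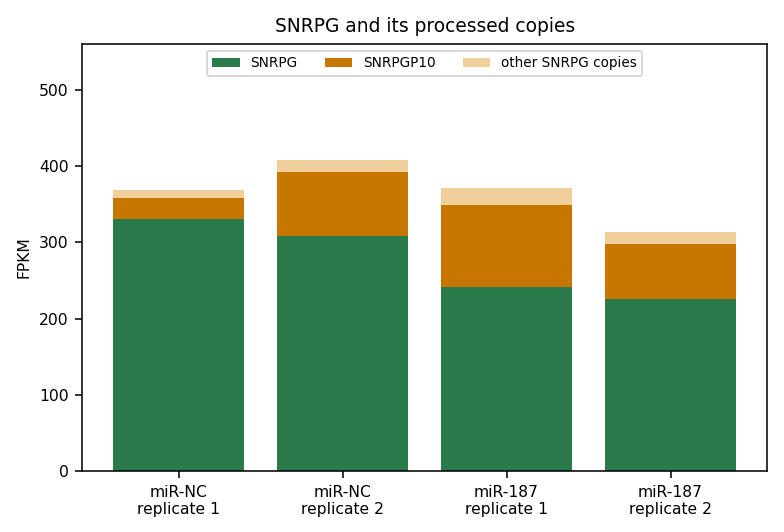
FPKM (linear axis from 0) of SNRPG, of SNRPGP10 and of the other SNRPG copies, stacked for each of the 4 libraries. The green SNRPG bars are lower with miR-187, while the stacked totals, 369, 407, 371 and 313 FPKM, overlap between the groups.

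Copies of other members held signal too. Of the 59 genes, 32 had pseudogenes named after them, 196 in all, and for 8 members these summed to at least 1 FPKM in a library. For SNRPE the copies, almost all SNRPEP4, took 18.8% to 23.1% of the joint FPKM, and the sum of gene and copies was 193 and 184 against 167 and 149.6 FPKM. The joint log2 ratio of means (-0.25) was near that of SNRPE alone (-0.22). The 74 copies of HNRNPA1 took 9.59% to 10.5% of the joint value. Copies took 11.8% to 16.4% for HNRNPA3, 6.34% to 9.68% for SNRPA1 and 5.21% to 6.65% for HNRNPC. For HNRNPK and SNRPF the share stayed at or below 2.58%. HNRNPL, at low level, had copies under 1 FPKM that took 16.0% to 21.8%. FPKM is divided by length, so these shares do not measure how many fragments could belong to either gene. The values of all of these are uncertain to an unknown extent. Exons are also shared with another expressed gene for EFTUD2, HNRNPA2B1, HNRNPAB, HNRNPH2, HNRNPH3, SNRPA, SNRPD3, SRSF1 and SRSF2, over 89 to 1890 bases a pair, so these levels may hold reads of both genes.

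In the U2 snRNP and its partners, 2 of 12 tested genes were lower (16.7%, beside 27.3% of all tested genes). SNRPA1, a U2-specific protein, was at 96.1 and 107 against 76.0 and 81.5 FPKM, a log2 fold change of -0.36 ± 0.13 with an adjusted p of 0.047, no longer called after leaving out miR-NC replicate 2 (adjusted p 0.16), miR-187 replicate 1 (adjusted p 0.27) or miR-187 replicate 2 (adjusted p 0.15). SF3A2, a subunit of SF3A, entered the test only through the miR-NC libraries and was low throughout at 1.21 and 1.29 against 0.715 and 0.210 FPKM, with miR-187 replicate 2 lowest (log2 fold change -0.64 ± 0.22, adjusted p 0.046). It was under the filter on the mean of all libraries and was no longer called after leaving out miR-187 replicate 2 (adjusted p 0.37), and without either miR-NC library it fell under the filter. The gene shares 398 exonic bases with PLEKHJ1 on the opposite strand, which was at 12.4 and 11.7 against 12.9 and 15.9 FPKM. SF3B1, which holds the branch point and is often mutated in myelodysplasia, was at 6.92 and 11.7 against 5.73 and 6.36 FPKM and missed the threshold (log2 fold change -0.51 ± 0.25, adjusted p 0.13). SF3B3 (-0.47), SNRPB2 (-0.25) and SF3B5 (-0.12) also had both miR-187 libraries lowest, without a call. SF3B6 (-0.15), SF3B4 (-0.12), SF3A3 (-0.04) and SF3B2 (0.01) overlapped. The U2AF heterodimer recognizes the end of the intron, and its small subunit U2AF1 was the only gene of this group with both miR-187 libraries highest, at 6.37 and 4.98 against 7.10 and 6.50 FPKM, without passing the test (log2 fold change 0.23 ± 0.22, adjusted p 0.43). Its large subunit U2AF2 overlapped (-0.29). SF3A1 lay under the filter at 0.713 and 0.920 against 0.759 and 0.791 FPKM.

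None of the 3 U1 proteins passed the test as deposited. SNRPC, which steadies U1 on the intron start, was at 157 and 178 against 142 and 132 FPKM, with both miR-187 libraries lowest (log2 fold change -0.29 ± 0.12, adjusted p 0.077). SNRPA was at 15.2 and 22.6 against 21.1 and 25.6 FPKM and overlapped (log2 fold change 0.31 ± 0.20, adjusted p 0.24). SNRPA was called higher after median-of-ratios scaling, 0.78 (adjusted p = 0.038). SNRNP70, which contacts the U1 RNA, sat just above the filter at 1.16 and 1.23 against 1.06 and 1.27 FPKM. Within libraries the ratio of SNRPA to SNRPC was 0.0964 and 0.127 with miR-NC against 0.148 and 0.194 with miR-187, with no overlap. This pair holds the highest and lowest fold changes of the 3 U1 proteins. It was chosen after its values were seen, so the gap is no independent support.

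**Figure D3:**
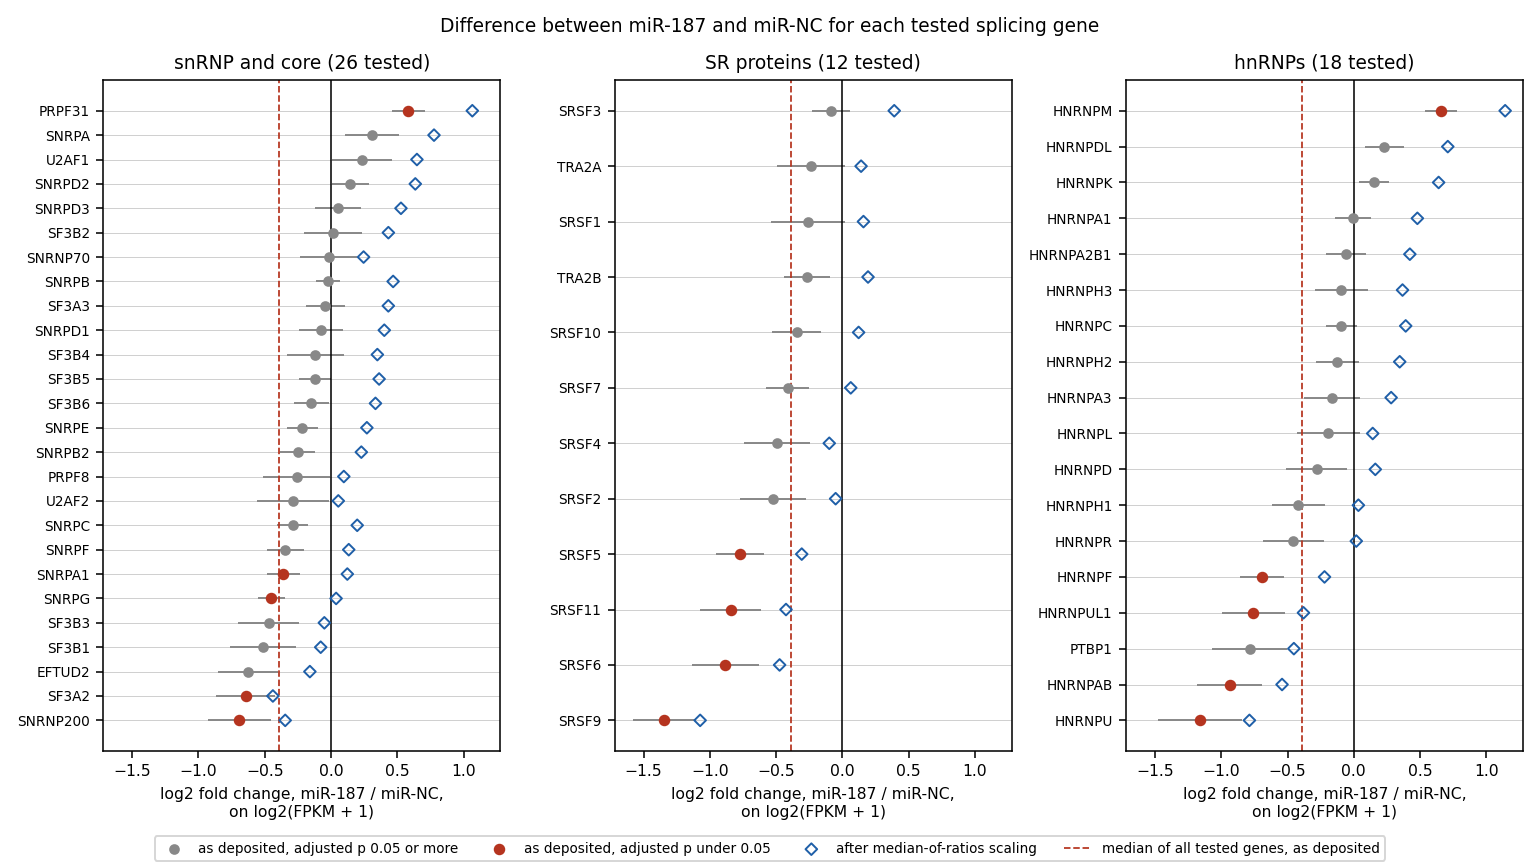
Log2 fold change of miR-187 over miR-NC on log2(FPKM + 1) for the 56 tested splicing genes by class, with bars of 1 SE. Red circles passed an adjusted p of 0.05 as deposited, grey circles did not, open diamonds are values after median-of-ratios scaling, and the dashed line is the median of all tested genes (-0.39). All 12 circles of the SR class lie left of 0, and HNRNPM and PRPF31 stand at the right of their panels.

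The SR proteins had the lowest median of the 3 classes. All 12 tested genes had log2 fold changes below 0, beside 85.2% of all tested genes. The class median was -0.45, beside -0.39. In the class 4 were lower (33.3%) and 0 higher, beside 27.3% and 1.49% of all tested genes. The 4 include SRSF9, which entered the test only through the miR-NC libraries. For 9 of 12 (75%) both miR-187 libraries lay below both controls, beside 65.4% of all tested genes. Summed FPKM of the class was 205 and 249 with miR-NC against 169 and 166 with miR-187, without overlap. After median-of-ratios scaling the median was 0.01, with 6 genes above 0, 1 lower and 0 higher. At an unadjusted p under 0.05 that limma fit gave 3 of 12 below 0 and 1 above, beside 13.6% and 15.02% of all tested genes. Both directions together were 33.3%, beside 28.6%. Whether the class differed from the others was not tested.

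SRSF9, an SR protein that can either activate or repress exons, was the member with the most negative fold change and was scarce in this line. It entered the test only through the miR-NC libraries, where it was high. By that filter it could enter only if lower with miR-187, which its p-value does not allow for. It was at 2.37 and 3.44 against 0.660 and 0.399 FPKM, so the miR-187 mean was 0.182 times the control mean. The log2 fold change was -1.34 ± 0.24 with an adjusted p of 0.0021, and -1.07 (adjusted p = 0.026) after median-of-ratios scaling. Its call was kept with the filter on the mean of all libraries (adjusted p 0.0027) and without either miR-187 library, and without either miR-NC library it fell under the filter and was not tested. SRSF9 (ENSG00000111786) lies on chromosome 12 from 120461668 to 120469793 on the minus strand (GENCODE 29, GRCh38). GATC, a mitochondrial glutamyl-tRNA amidotransferase subunit on the opposite strand, shares 1729 of its 3744 exonic bases. GATC was at 10.97 and 14.5 against 9.76 and 8.75 FPKM, well above SRSF9. Strand was not stated for the counting, so reads of both genes cannot be told apart there. The ratio of SRSF9 to SRSF3 within a library was 0.0594 and 0.0816 with miR-NC against 0.0169 and 0.0105 with miR-187.

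SRSF5 and SRSF6 belong to the SR proteins whose transcripts carry a poison exon, a cassette that leads to decay of the mRNA. SRSF5 was at 26.7 and 31.0 against 18.8 and 14.3 FPKM, a log2 fold change of -0.77 ± 0.18 with an adjusted p of 0.0091, no longer called after leaving out miR-NC replicate 2 (adjusted p 0.057) or miR-187 replicate 2 (adjusted p 0.14). SRSF6 was at 5.81 and 9.17 against 3.39 and 3.64 FPKM (log2 fold change -0.88 ± 0.25, adjusted p 0.022), and it was no longer called after leaving out miR-NC replicate 2 (adjusted p 0.1), miR-187 replicate 1 (adjusted p 0.14) or miR-187 replicate 2 (adjusted p 0.12). SRSF11, a nuclear speckle protein, was at 7.30 and 9.34 against 3.996 and 4.33 FPKM (log2 fold change -0.84 ± 0.23, adjusted p 0.017), no longer called after leaving out miR-NC replicate 2 (adjusted p 0.063), miR-187 replicate 1 (adjusted p 0.15) or miR-187 replicate 2 (adjusted p 0.12). In all of these the miR-187 libraries were lowest. SRSF7, which also promotes mRNA export, was at 43.6 and 47.3 against 39.0 and 29.4 FPKM and missed the threshold (log2 fold change -0.41 ± 0.16, adjusted p 0.071). SRSF2, a factor of exon recognition mutated in myeloid neoplasms, was at 27.6 and 44.1 against 18.3 and 31.3 FPKM, and the groups overlapped, with a wide spread in each group (log2 fold change -0.52 ± 0.25, adjusted p 0.12). At the other end of the class stood SRSF3, the smallest SR protein, at 39.8 and 42.2 against 39.1 and 38.0 FPKM (log2 fold change -0.09 ± 0.14, adjusted p 0.65).

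The remaining SR genes passed no test. SRSF4 (-0.49), SRSF10 (-0.34) and TRA2B (-0.27) had both miR-187 libraries lowest, whereas SRSF1 (-0.26) and TRA2A (-0.24) overlapped. SRSF1, the founding SR protein, was at 5.61 and 7.85 against 7.35 and 3.89 FPKM, and its miR-187 replicates differed by more than its group means. The ratio of SRSF5 to SRSF3, a pair also chosen after its values were seen, was 0.670 and 0.735 with miR-NC against 0.481 and 0.376 with miR-187.

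Among the hnRNPs, 4 of 18 tested genes were lower (22.2%, beside 27.3% of all tested genes) and HNRNPM was higher. The class median was -0.18, with values from -1.16 to 0.66. After median-of-ratios scaling 0 were lower and 4 were higher (22.2%, beside 4.67% of all tested genes), with a median of 0.22. At an unadjusted p under 0.05, 3 were below 0 and 7 above in that limma fit, beside 13.6% and 15.02% of all tested genes. HNRNPM, an hnRNP that binds GU-rich sequence and regulates exon choice in epithelial to mesenchymal transition, was at 87.7 and 99.2 against 147 and 148 FPKM. Each miR-187 library lay well above both controls, and replicates were close. The ratio of means was 1.58, with a log2 fold change of 0.66 ± 0.12 with an adjusted p of 0.0025, and 1.14 (adjusted p = 0.0062) after median-of-ratios scaling. HNRNPM kept its call without each of the 4 libraries in turn, the only called member to do so. HNRNPM (ENSG00000099783) lies on chromosome 19 from 8444767 to 8489114 on the plus strand (GENCODE 29, GRCh38).

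The lowered hnRNPs were mostly of low level. HNRNPU, also called scaffold attachment factor A, was at 4.61 and 7.16 against 3.23 and 1.17 FPKM, with miR-187 replicate 2 well below replicate 1. It had the most negative fold change of the class, -1.16 ± 0.32 with an adjusted p of 0.019, no longer called after leaving out miR-NC replicate 2 (adjusted p 0.15) or miR-187 replicate 2 (adjusted p 0.29). HNRNPU shares 3502 of 22512 exonic bases with COX20 on the opposite strand, a cytochrome c oxidase assembly factor at 13.6 and 15 against 9.17 and 8.44 FPKM. HNRNPAB, an A/B-type hnRNP, was at 5.26 and 7.61 against 3.03 and 2.64 FPKM (log2 fold change -0.94 ± 0.25, adjusted p 0.016), no longer called after leaving out miR-NC replicate 2 (adjusted p 0.072), miR-187 replicate 1 (adjusted p 0.077) or miR-187 replicate 2 (adjusted p 0.16). HNRNPUL1, a relative of HNRNPU, was at 4.36 and 5.29 against 2.62 and 2.26 FPKM (log2 fold change -0.76 ± 0.24, adjusted p 0.033), no longer called after leaving out miR-NC replicate 2 (adjusted p 0.1), miR-187 replicate 1 (adjusted p 0.16) or miR-187 replicate 2 (adjusted p 0.29). HNRNPF, which binds G-rich tracts, was the most abundant of the 4 at 34.9 and 44.7 against 25.5 and 22.6 FPKM (log2 fold change -0.70 ± 0.17, adjusted p 0.01), no longer called after leaving out miR-NC replicate 2 (adjusted p 0.063) or miR-187 replicate 2 (adjusted p 0.09). PTBP1, a repressor that binds pyrimidine tracts, was at 2.48 and 3.93 against 0.931 and 1.99 FPKM. Both miR-187 libraries were lowest, and the test narrowly missed the threshold (log2 fold change -0.79 ± 0.28, adjusted p 0.051).

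No other abundant hnRNP passed the test as deposited. HNRNPC (-0.10), HNRNPA1 (-0.01) and HNRNPA2B1 (-0.06) overlapped between groups. HNRNPK, a binder of C-rich sequence, was at 164 and 158 against 191 and 168 FPKM, and HNRNPDL at 40.9 and 44.5 against 54.4 and 46.4 FPKM. In both genes the miR-187 libraries were highest without passing the test (0.15 and 0.23). After median-of-ratios scaling HNRNPDL, HNRNPK and HNRNPA1 were called higher, at 0.71 (adjusted p = 0.024), 0.64 (adjusted p = 0.045) and 0.48 (adjusted p = 0.039). HNRNPR (-0.46), HNRNPD (-0.28), HNRNPA3 (-0.17), HNRNPH2 (-0.13) and HNRNPH3 (-0.09) overlapped as deposited. HNRNPH1 (-0.42) and HNRNPL (-0.19) had both miR-187 libraries lowest without a call. HNRNPA0 lay under the filter at 0.345 and 0.318 against 0.236 and 0.247 FPKM. The ratio of HNRNPM to HNRNPU was 19.0 and 13.8 with miR-NC against 45.5 and 126 with miR-187. HNRNPM to HNRNPF was 2.52 and 2.22 with miR-NC against 5.75 and 6.57 with miR-187. Against the abundant HNRNPA1 it was 0.973 and 0.887 with miR-NC against 1.42 and 1.53 with miR-187.

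**Figure D4:**
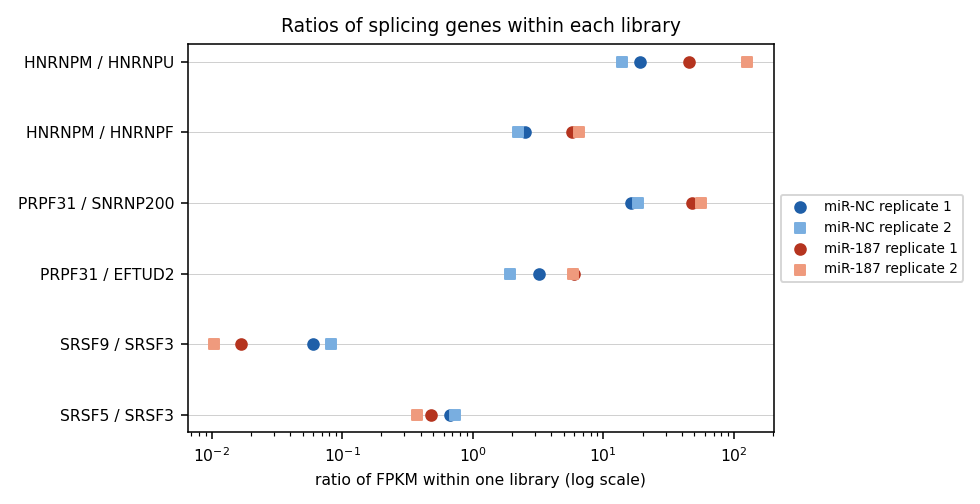
Ratio of the FPKM of pairs of splicing genes within each library (log axis), blue for miR-NC and red for miR-187. In each of the 6 pairs the red points lie apart from the blue ones, as for HNRNPM to HNRNPF at 2.52 and 2.22 with miR-NC against 5.75 and 6.57 with miR-187, whatever the scaling of the libraries. The pairs were chosen after their values were seen.

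Across the members, less abundant genes had the more negative changes as deposited. Of 21 genes with a mean under 10 FPKM, 8 were lower (38.1%) and 0 higher, with a median log2 fold change of -0.49. The 8 include SRSF9 and SF3A2, which entered the test only through the miR-NC libraries and so could enter only if lower. Of 20 genes from 10 to under 50 FPKM, 2 were lower, with a median of -0.22. Of 15 genes at 50 FPKM and over, 2 were lower and 2 higher, with a median of -0.10. All tested genes had medians of -0.41, -0.41 and -0.22 and 21.6%, 39.7% and 37.3% lower in the same ranges. After median-of-ratios scaling both rose with level, with medians of -0.08, 0.24 and 0.39 for the members and -0.07, 0.05 and 0.26 for all tested genes. Spearman's rho between mean FPKM and log2 fold change was 0.47 over 56 members and 0.07 over 7120 tested genes with an annotated transcript. Genes are not independent replicates, and all points share the same 4 libraries and scaling, so these are descriptions.

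**Figure D5:**
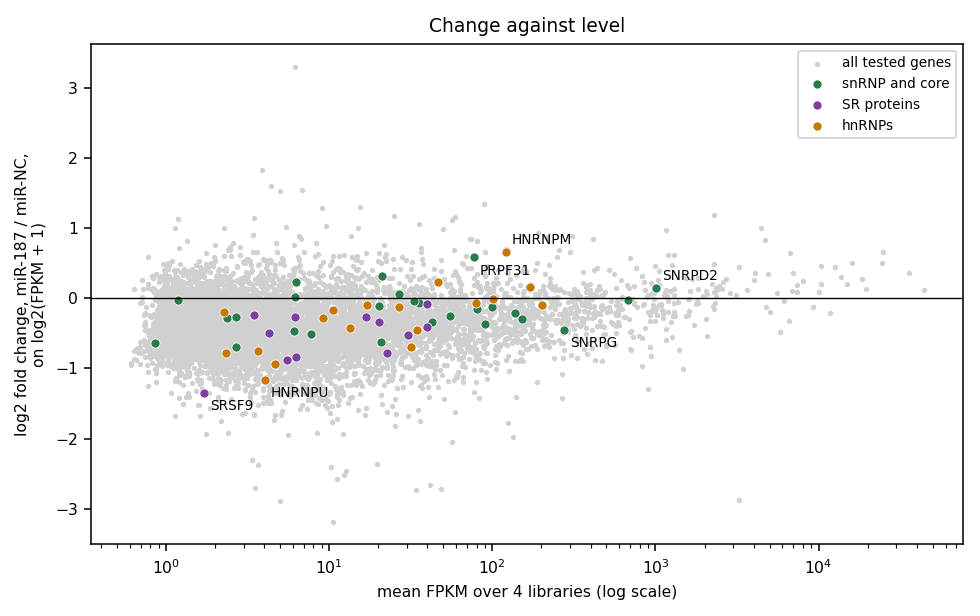
Log2 fold change on log2(FPKM + 1) against mean FPKM over the 4 libraries (log axis) for all 8196 tested genes in grey and the splicing genes in colour by class. Members below 10 FPKM lie mostly under 0, with SRSF9 and HNRNPU lowest, and HNRNPM and PRPF31 lie above the other members.

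Transcript length went with level. Members with a transcript under 1500 nt (11 genes, among them 5 of the 7 Sm ring proteins) had a median of 99.4 FPKM, those from 1500 to under 3000 nt (27 genes) 20.2 FPKM, and those of 3000 nt and over (18 genes) 8.38 FPKM. All tested genes had medians of 25.5, 6.77 and 2.82 FPKM in these ranges. The members' median log2 fold changes were -0.22, -0.24 and -0.45, and those of all tested genes were -0.37, -0.41 and -0.41. The length is that of 1 annotated transcript per gene and need not be the one expressed.

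Splicing genes outside the 3 classes were read from 8 further lists. Of 158 tested genes in these lists, 39 were lower (24.7%) and 2 were higher (1.27%), beside 27.3% and 1.49% of all tested genes. Their median log2 fold change was -0.34, beside -0.39. After median-of-ratios scaling 4 were lower and 7 higher, beside 3.7% and 4.67% of all tested genes, with a median of 0.07. The counts of lower genes by list below stand beside the same 27.3% of all tested genes. In the LSM ring, which binds the U6 RNA or, with LSM1, decaying mRNA, 2 of 8 genes were lower. LSM2 was at 38.7 and 42.6 against 27.4 and 22.7 FPKM (log2 fold change -0.68 ± 0.16, adjusted p 0.0089) and LSM1 at 42.2 and 57.5 against 37.0 and 31.1 FPKM (log2 fold change -0.53 ± 0.17, adjusted p 0.037). Among other subunits of the tri-snRNP and PRP19 complex 7 of 30 were lower, led by BUD31, at 47.9 and 53.6 against 29.3 and 24.8 FPKM (log2 fold change -0.89 ± 0.15, adjusted p 0.0019), and CTNNBL1 (log2 fold change -0.46 ± 0.13, adjusted p 0.02). PLRG1, a core subunit of the PRP19 complex, was higher, at 12.8 and 18.5 against 26.6 and 22.9 FPKM (log2 fold change 0.65 ± 0.20, adjusted p 0.029). Of the helicases and step factors 2 of 21 were lower, DHX15, which releases the spent intron lariat (log2 fold change -0.89 ± 0.22, adjusted p 0.012), and DDX39B, which helps U2 bind (log2 fold change -0.73 ± 0.19, adjusted p 0.014). In the minor spliceosome, which removes a rare class of introns, 4 of 9 were lower. SCNM1 was at 75.2 and 85.1 against 38.3 and 32.5 FPKM (log2 fold change -1.16 ± 0.14, adjusted p 2.6e-04), and SNRNP35 at 20.2 and 22.5 against 13.8 and 14.1 FPKM (log2 fold change -0.58 ± 0.17, adjusted p 0.026).

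Of the genes that assemble Sm rings, 5 of 17 were lower. GEMIN7, a subunit of the SMN complex that loads Sm proteins onto snRNAs, was at 79.4 and 86.4 against 37.1 and 42.3 FPKM (log2 fold change -1.05 ± 0.14, adjusted p 4.0e-04), and PHAX, the snRNA export adaptor, was at 19.5 and 20.4 against 12.5 and 11.3 FPKM (log2 fold change -0.70 ± 0.18, adjusted p 0.012). In the exon junction and export list 7 of 22 were lower, led by SRRM1 (log2 fold change -1.25 ± 0.27, adjusted p 0.0056) and EIF4A3 (log2 fold change -1.09 ± 0.25, adjusted p 0.0084). RBM8A, which together with EIF4A3 is in the core of the exon junction complex, was higher, at 94.6 and 85.3 against 194 and 111 FPKM (log2 fold change 0.70 ± 0.20, adjusted p 0.021). Its miR-187 replicates were far apart, and both lay above the controls. Of the SR protein kinases and speckle scaffold genes 4 of 17 were lower. RBM39, a U2AF-related factor, was at 41.9 and 54.2 against 22.7 and 20.9 FPKM (log2 fold change -1.10 ± 0.16, adjusted p 8.6e-04), and CLK1, a kinase that phosphorylates SR proteins, was at 10.1 and 16.5 against 5.82 and 5.86 FPKM (log2 fold change -1.03 ± 0.24, adjusted p 0.0086). Of the other splicing RNA-binding proteins 8 of 34 were lower, led by RBM3, a cold-induced protein (log2 fold change -1.25 ± 0.19, adjusted p 9.8e-04), and RBFOX2, a regulator of tissue-specific exons (log2 fold change -0.90 ± 0.21, adjusted p 0.0089). Of the 39 lower calls in these lists, 36 and 10 were kept when miR-NC replicate 1 or 2 was left out, and 14 and 8 when miR-187 replicate 1 or 2 was. RBM8A was no longer called after leaving out miR-NC replicate 2 (adjusted p 0.16) or miR-187 replicate 1 (adjusted p 0.29). PLRG1 was no longer called after leaving out miR-NC replicate 1 (adjusted p 0.087), miR-187 replicate 1 (adjusted p 0.21) or miR-187 replicate 2 (adjusted p 0.075). After median-of-ratios scaling 4 of the 39 calls were kept, as were those on RBM8A and PLRG1.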

How the data were processed

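Libraries of EA.hy926 mRNA, 2 per group, were grouped by their titles. The authors deposited 1 FPKM value per gene and library, made with HISAT2 and StringTie against hg19 (DESeq2 is also named, and no versions are given). FPKM depends on what else a library holds, so a few abundant transcripts can lower the rest. Of 743 low genes in the miR-NC libraries at most 13 shared 1 ratio, so whole reads were not recovered and depth is unknown. The 49 pseudoautosomal Y copies were left out, and 58611 of 62443 identifiers had a symbol.

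The 8196 genes that reached 1 FPKM in 2 or more libraries entered a two-sided limma test (3.58.1, R 4.3.3) of log2(FPKM + 1) with an intensity trend. P-values were adjusted by Benjamini-Hochberg across these genes, with a cutoff of 0.05, on 2 residual plus 10.9 prior degrees of freedom. Exact permutation was not used, since 2 against 2 libraries allow no p under 0.33. Scripts were tested on simulated data. Called, lower and higher mean past the threshold. Alternatives changed the scaling, pseudocount, filter, trend, block or libraries used.

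The members and lists were chosen with earlier results of these data known. All 59 members are reported, with library values for the 6 smallest adjusted p per class, those higher, those under the filter and the extremes, and from each further list the 2 called genes with the smallest adjusted p and any higher. Library values of other members were printed after they were seen. Coordinates, transcripts and pseudogenes follow GENCODE 29 (GRCh38), with no conversion from hg19. Sequences were aligned with Biopython 1.88, and Python 3.11.15, pandas 2.3.3 and matplotlib 3.10.9 were used.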

Additional observations from a re-analysis of the deposited data

How the results depend on the processing

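Median-of-ratios scaling gave 1 member lower and 7 higher in place of 12 and 2, and quantile normalization gave 1 lower and 3 higher. The members' median became 0.16 with median-of-ratios and 0.13 with quantile normalization. Class medians became 0.26 and 0.15 for snRNP and core proteins, 0.22 and 0.19 for hnRNPs, and 0.0059 under median-of-ratios for SR proteins, and the median of all tested genes was 0.0012 under quantile normalization. As deposited 47 of 56 tested members were below 0, beside 85.2% of all tested genes. Under median-of-ratios 40 members were above 0, beside 49.0% of all tested genes. Among those that changed sign were SNRPA1 (0.12), SNRPG (0.039) and HNRNPA1 (0.48). Without a filter on low values 25001 genes were tested and limma called 0 members lower and 0 higher, while 15 of 59 had an unadjusted p under 0.05, beside 16.8% of all these genes. Leaving out a library gave 1 to 17 members lower, 1 to 3 higher and a median from -0.38 to -0.10, with the lone library assumed to vary like the other group. Over all tested genes 822 to 2719 were then lower and 72 to 119 higher, and without the trend 1671 and 48. TPM, a pseudocount of 0.1, a filter at 5 FPKM and no trend gave 9 to 17 members lower and 2 higher. The filter at 5 FPKM left 44 members, and 17 of them had an unadjusted p under 0.05 in limma, beside 2275 of 4110 genes. For TPM, the pseudocount and no trend these were 24, 19 and 16 of 56 members, beside 3812, 3523 and 3469 of 8196 genes. For quantile normalization they were 21 of 56 members and 2245 of 8196 genes. With the replicate number as a block, 16 of 56 members were lower and 2 higher. In that limma fit 22 members had an unadjusted p under 0.05, beside 3545 of 8196 genes. The labels do not say whether the replicate numbers pair the samples. The difference between replicates correlated at -0.06 between groups, which cannot settle this with 1 difference per group. HNRNPM was called under each setting but the one without a filter. The cause of these shifts was not tested. Depth is unknown, so no detection limit is given.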
